A study of Mus musculus with 18 samples.

Results

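The mitochondrial ribosomal protein genes are the nuclear genes that encode the protein subunits of the ribosome inside mitochondria. They were taken from the table of raw gene counts as the protein-coding genes whose symbol starts with Mrpl (large subunit) or Mrps (small subunit) followed by a digit. This gave 78 of 54532 genes, 49 named Mrpl and 29 named Mrps, and 77 of the 78 had enough counts to be tested. The exception was Mrpl53, with 3 counts over 18 libraries and at most 1 in any library. Of its exonic bases, 88.0% also belong to Gm42688, a gene model on the same strand that received 460 counts.

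The libraries came from plasmacytoid dendritic cells (pDCs), the dendritic cells specialised in type I interferon release. Bone marrow of wild-type C57BL/6 mice was grown for 7 days with the growth factor Flt3L at 80 ng/mL, and cells carrying the surface antigen B220 were enriched with magnetic beads, with a routine purity of 80% per the labels. The groups were untreated cells at 0 h and cells given vehicle (LAL in the sample titles) at 0 h, 6 h and 16 h. The others were cells given imiquimod at 2.5 µg/mL for 6 h and 16 h, and each group had 3 libraries. Imiquimod is a small-molecule agonist of Toll-like receptor 7, the endosomal sensor of single-stranded RNA. The cells of all 6 groups share the mouse strain, the Flt3L culture and the B220 enrichment. Whether replicate libraries stem from different cultures or mice is not stated in the labels. The p-values therefore refer to the spread among replicate libraries, and part or all of that spread may be technical. Total RNA was depleted of ribosomal RNA and sequenced as 75-nt read pairs.

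The mitochondrial ribosome makes the few proteins encoded by mitochondrial DNA, which are core subunits of the respiratory chain and of ATP synthase. Its proteins are made in the cytosol and imported, and they are assembled onto the mitochondrially encoded 12S and 16S ribosomal RNAs. Some of its subunits have a bacterial counterpart, whereas others were gained in mitochondria, and the mammalian particle is richer in protein than the bacterial ribosome.

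Library totals ran from 10609741 to 13447018 counts, a ratio of 1.27. Levels below are in CPM, the usual RNA-seq unit of a gene's counts relative to the size of its library, with library sizes scaled by edgeR's TMM factors. These factors ran from 0.817 to 1.066. All 10 pDC markers passed the expression filter. Their summed level was 7584.8 CPM in vehicle 0 h, 7440.3 in vehicle 6 h, 6345.5 in imiquimod 6 h, 9010.5 in vehicle 16 h and 4395.8 in imiquimod 16 h. With imiquimod 4 of the 10 rose and 6 fell at 6 h, and 1 rose and 8 fell at 16 h. Markers of other cells moved with the treatment. The 4 monocyte and macrophage markers, all detected, summed to 1425.1 to 1583.1 CPM in the vehicle 6 h libraries against 192.6 to 200.7 with imiquimod, and to 1893.2 to 1960 against 76.38 to 90.35 at 16 h. Most of this sum was Ccr2, at 1320 CPM in vehicle and 71.1 CPM in imiquimod at 6 h, and Ly6c2 of the same list rose at 6 h, from 49.7 to 84.6 CPM. The other 3 fell at 6 h, and all 4 fell at 16 h. The 4 cDC1 and 4 cDC2 markers, all detected, summed to 377.1 to 382 and 281.3 to 296.1 CPM in vehicle 6 h, to 135.3 to 153.5 and 148.8 to 154.4 in imiquimod 6 h, to 332 to 358.9 and 282.6 to 290.1 in vehicle 16 h, and to 82.47 to 84.79 and 122.7 to 124.9 in imiquimod 16 h. All 8 fell at both times, except that Itgam rose at 16 h. The 5 B cell markers summed to 81.05 to 90.54 CPM in vehicle 6 h, 161.5 to 174.3 in imiquimod 6 h, 87.89 to 110.9 in vehicle 16 h and 176.2 to 187.1 in imiquimod 16 h. The higher sum came from Pax5, at 18.9 CPM in vehicle and 112 CPM in imiquimod at 6 h and at 21.3 and 133 CPM at 16 h. Most of the other B cell markers fell at 6 h and at 16 h. None of the 5 neutrophil, 5 T and NK cell or 5 erythroid markers passed the filter, and the erythroid gene Hba-a2 had no count in any library. In these bulk libraries fewer cells of a type and less RNA per cell cannot be told apart, and the part of the cell make-up in the results that follow was not tested.

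Together the 78 genes held 1359.8 ± 17.3 CPM (SD, n = 3) in vehicle 0 h and 1374.9 ± 22.8 in untreated cells. The sum stood at 1373.4 ± 29.7 in vehicle 6 h, 1426.1 ± 25.4 in imiquimod 6 h, 1255.4 ± 21.7 in vehicle 16 h and 1799 ± 32.6 in imiquimod 16 h. The imiquimod 16 h libraries, at 1776.7 to 1836.4 CPM, lay above each of the other 15. As an unscaled share of all counts the set took 0.142 to 0.145% in vehicle 0 h, 0.143 to 0.145% in vehicle 6 h and 0.116 to 0.119% in imiquimod 6 h. It took 0.127 to 0.131% in vehicle 16 h and 0.179 to 0.187% in imiquimod 16 h. At 6 h the scaled sum was thus higher with imiquimod than with vehicle, while the unscaled share was lower. Single genes had a median coefficient of variation between libraries of a group from 5.2% in vehicle 0 h to 7.7% in imiquimod 6 h. Per kilobase of principal transcript, among the 77 tested genes, the vehicle 0 h level was highest for Mrpl52 (47.5 CPM per kb), Mrpl33 (40.3), Mrpl24 (37.8) and Mrpl28 (34.3). It was lowest for Mrps25 (1.99), Mrps36 (2.13), Mrpl17 (2.75) and Mrps5 (3.06). The median over the 77 was 10 CPM per kb in vehicle 0 h, 11.5 in imiquimod 6 h and 14.5 in imiquimod 16 h.

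**Figure D1:**
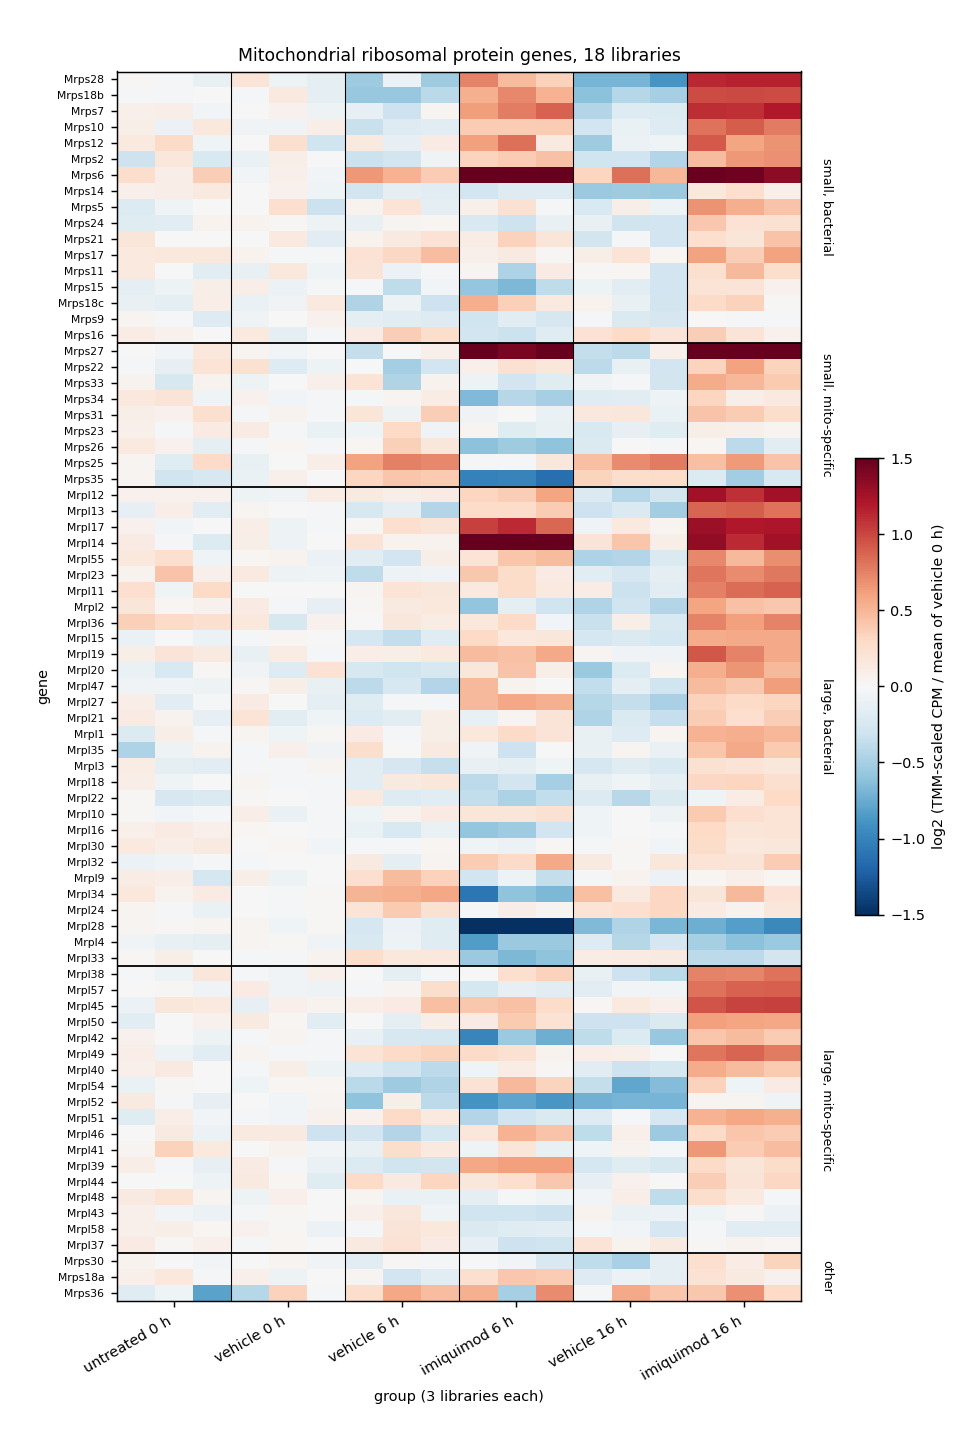
Level of each of the 77 tested genes (rows, ordered within each structural class by the imiquimod effect at 16 h) in each of the 18 libraries (columns), as log2 of the TMM-scaled CPM over the mean of vehicle 0 h, with the colour scale ending at -1.5 and 1.5. The 3 imiquimod 16 h columns are red for most rows, the imiquimod 6 h columns hold red and blue rows in similar numbers, and Mrps6, Mrps27, Mrpl14 and Mrpl28 reach the ends of the scale.

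Promoter sequence is shown for 5 genes that carry the results below. Mrps27 had the largest imiquimod effect at 16 h, and Mrpl12 the largest at 16 h among the large subunit genes. Mrpl45 holds 3 matches to the NRF1 motif, Mrpl2 was lower at 6 h and higher at 16 h, and Mrpl28 had the lowest effect at 6 h. Each window runs from 150 bases before to 30 after the transcript start of RefSeq's GRCm38.p6 table, on the plus strand. The windows are chr13:99344636-99344815 (Mrps27), chr11:120484487-120484666 (Mrpl12), chr11:97315566-97315745 (Mrpl45), chr17:46646079-46646258 (Mrpl2) and chr17:26123353-26123532 (Mrpl28). Capitals mark matches to the motifs named below.
Mrps27: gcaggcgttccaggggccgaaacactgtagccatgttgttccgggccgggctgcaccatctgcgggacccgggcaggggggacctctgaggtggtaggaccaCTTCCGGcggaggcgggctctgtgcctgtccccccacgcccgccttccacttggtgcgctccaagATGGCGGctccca
Mrpl12: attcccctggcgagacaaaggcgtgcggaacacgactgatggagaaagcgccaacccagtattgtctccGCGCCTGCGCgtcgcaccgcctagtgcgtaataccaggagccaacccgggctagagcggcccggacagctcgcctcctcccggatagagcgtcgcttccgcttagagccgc
Mrpl45: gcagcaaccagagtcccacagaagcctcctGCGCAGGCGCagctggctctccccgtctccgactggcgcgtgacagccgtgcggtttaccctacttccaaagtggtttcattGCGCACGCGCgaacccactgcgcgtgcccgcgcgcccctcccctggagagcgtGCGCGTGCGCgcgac
Mrpl2: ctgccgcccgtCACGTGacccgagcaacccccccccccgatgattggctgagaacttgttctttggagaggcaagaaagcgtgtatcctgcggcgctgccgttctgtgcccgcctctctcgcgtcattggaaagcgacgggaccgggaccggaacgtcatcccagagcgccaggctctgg
Mrpl28: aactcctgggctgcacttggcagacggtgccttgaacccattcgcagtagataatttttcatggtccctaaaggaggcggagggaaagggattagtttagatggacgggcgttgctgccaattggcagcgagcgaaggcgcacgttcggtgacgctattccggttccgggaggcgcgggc
In Mrps27 the capitals are CTTCCGG, an ETS motif on the minus strand, and ATGGCGG, the YY1 core. In Mrpl12 and Mrpl45 they mark matches to the NRF1 motif, reading GCGCCTGCGC in the first and GCGCAGGCGC, GCGCACGCGC and GCGCGTGCGC in the second. In Mrpl2 the capitals mark the E box CACGTG, and the Mrpl28 window holds none of these letters.

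Of the 78 genes, 69 had a promoter of 250 bases before to 50 after the start in the same table. The ETS motif CCGGAAG, searched on both strands like the others, was in 24 of the 69 (34.8%), against 8.9% of all 32841 promoters and 17.8% of the 12461 promoters of tested genes. The NRF1 motif, whose letters are the capitals in Mrpl12 and Mrpl45 above, was in 13 (18.8%, against 4.6% and 9.9%), and the YY1 core ATGGCGG in 13 (18.8%, against 4.1% and 7.9%). The E box CACGTG, the site of Myc and related factors, was in 5 (7.2%, against 7.2% and 9.9%). No motif was found in 26 of the 69. The 69 hold a single promoter per gene, the one nearest the annotated gene start. The shares for all promoters and for tested genes count every promoter entry, so that a gene can enter more than once. These shares are therefore of unlike units, and the part of this choice in their difference was not tested. Median GC content was 58.3% in the 69 promoters, 52.7% in all and 60.7% in those of tested genes, and motifs rich in G and C share letters with it. The median log2 fold change with imiquimod at 16 h was 0.48 for genes with the ETS motif and 0.57 for those without. It was 0.48 and 0.60 for the NRF1 motif, 0.54 and 0.56 for the YY1 core, and 0.78 and 0.52 for the E box. A match says that the letters are present, not that a factor binds there.

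Vehicle and untreated cells, both at 0 h, did not differ detectably. The comparison does not cover longer exposure to the vehicle, since the series holds no untreated libraries at 6 h or 16 h. At those times an effect of the vehicle cannot be told apart from that of time in culture. Of the 77 tested genes, 0 were called at an adjusted p under 0.05 (edgeR quasi-likelihood test, Benjamini-Hochberg over 14876 genes) between vehicle 0 h and untreated cells, where 0% of all genes were called. By edgeR 2 of the 77 had an unadjusted p under 0.05, and DESeq2 called 0 and gave 1 such gene.

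After 16 h of imiquimod the set as a whole stood above its vehicle control. In this comparison 62 of 77 genes rose and 5 fell (edgeR), where 39.1% of all tested genes were higher and 38.1% lower. Of the 62, 39 rose by at least 1.5-fold (25.6% of all genes), and 1 of the 5 fell by that much (25.8% of all genes). The median log2 fold change of the 77 was 0.60, beside 0 for all genes tested, and single values ran from -0.60 to 2.20. For 60 genes the 3 imiquimod libraries all lay above the 3 vehicle libraries, for 5 they all lay below, and for 12 they overlapped. The share of all genes without overlap was not counted, and 77.2% of all genes were called. The lack of overlap is therefore not given as a trait of the set. Scaling by library totals in place of TMM factors left 61 higher and 5 lower, where 38.5% and 38.7% of all genes were called.

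The structural classes and roles used below were assigned from general knowledge, not from a reference table. Among small subunit genes with a bacterial counterpart, 16 of 17 rose and 0 fell at 16 h, with a median log2 fold change of 0.62. Mrps28 stood at 2.57, 2.57 and 2.26 CPM in vehicle 16 h and at 9.14, 9.31 and 9.3 CPM in imiquimod 16 h. The groups did not overlap, and the log2 fold change came to 1.90 ± 0.16 (SE; edgeR adjusted p = 8.63e-18). Mrps18b, one of 3 mammalian relatives of a single bacterial protein, stood at 9.19, 10.5 and 9.92 CPM against 27.8, 27.9 and 27.7 CPM. Its imiquimod libraries agreed closely with each other and lay far above vehicle, at a log2 fold change of 1.49 ± 0.092 (SE; edgeR adjusted p = 1.25e-25). Of its exonic bases 30.5% also lie opposite Gm16279, which had 116 counts and was not called. Mrps7, a protein of the small subunit head, stood at 14.8, 17.5 and 17.4 CPM against 43.1, 42.7 and 45.8 CPM, again without overlap (log2 fold change 1.40, SE 0.078; edgeR adjusted p = 2.46e-28). It shares 11.9% of its exonic bases with the opposite-strand genes Mif4gd and Gga3, which were themselves higher, by 1.37 and 0.60 on the log2 scale. Mrps12, at the decoding centre, rose by 0.95 and Mrps2 by 0.94. Mrps15, near the platform, rose by 0.33, and Mrps18c by 0.33. The Mrps18c libraries overlapped, and its call was lost without either of the vehicle replicates 2 and 3 or the imiquimod replicates 1 and 2 (adjusted p from 0.0526 to 0.143). With all libraries it was also lost in the DESeq2 Wald test (0.33, adjusted p = 0.0762).

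Of the small subunit genes specific to mitochondria, 6 of 9 rose and 1 fell, with a median of 0.27. Mrps27 (ENSMUSG00000041632.7), an RNA-binding pentatricopeptide repeat protein, lies at chr13:99344786-99415562 on the plus strand. It stood at 8.64, 8.42 and 11.7 CPM in vehicle 16 h and at 47.4, 39.6 and 45.7 CPM in imiquimod 16 h. No imiquimod library was near the vehicle range, and the log2 fold change of 2.20 ± 0.093 (SE; edgeR adjusted p = 3.06e-34) was the largest of the 77. Of its exonic bases 24.2% lie opposite 6430562O15Rik, which had 22 counts over the 18 libraries. Mrps35 (ENSMUSG00000040112.9), of the small subunit head, moved the other way, from 32.2, 30.6 and 30.9 CPM to 22.1, 17.8 and 21.8 CPM. Its groups did not overlap, with a log2 fold change of -0.60 ± 0.079 (SE; edgeR adjusted p = 1.43e-10). Mrps34, needed for a stable small subunit, rose by 0.32. It shares 63.4% of its exonic bases with the opposite-strand gene Mapk8ip3, whose value was -0.23. Of its exonic bases 37.0% also belong to the same-strand gene Nme3, which had 4 counts over the 18 libraries.

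Large subunit genes with a bacterial counterpart rose in 23 of 30 cases and fell in 4, with a median of 0.64. Mrpl12 (ENSMUSG00000039640.7, chr11:120484613-120489065), a protein of the stalk that contacts translation factors, stood at 15, 13 and 14.4 CPM in vehicle 16 h and at 41.8, 37.3 and 41.8 CPM in imiquimod 16 h. The groups were far apart, at a log2 fold change of 1.51 ± 0.08 (SE; edgeR adjusted p = 1.68e-29). Mrpl1, Mrpl10 and Mrpl11, listed with Mrpl12 as proteins of the stalks of the large subunit, also rose, and the median of the 4 was 0.77. Mrpl11 rose by 0.94 and Mrpl10 by 0.33. Mrpl2, at the peptidyl transferase centre, rose by 0.88 and Mrpl14 by 1.00, while Mrpl3 rose by 0.42. Of the 6 genes for proteins around the exit tunnel, 5 rose and 1 fell, with a median of 0.84. Mrpl45, which anchors the ribosome to the inner membrane at that site, rose by 0.91, from 17, 18.7 and 17.8 CPM to 32.5, 33.9 and 34.2 CPM. Mrpl17, also at the tunnel, rose by 1.19, at 19.4, 22.3 and 20.6 CPM against 48.9, 46.2 and 46.7 CPM.

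The 4 large subunit genes that fell at 16 h were Mrpl33, Mrpl4, Mrpl28 and Mrpl24, each with a bacterial counterpart. Mrpl33 went from 20.8, 20.9 and 21.1 CPM to 14.7, 14.6 and 15.9 CPM, a log2 fold change of -0.47. Mrpl4 stood at -0.26, Mrpl28 at -0.23 and Mrpl24 at -0.14. The calls of the last pair rest on single libraries. Without vehicle 16 h replicate 2, Mrpl28 was at -0.14 (adjusted p = 0.143) and Mrpl24 at -0.13 (adjusted p = 0.0591), which left 3 genes lower in place of 5. Mrpl28 was also not called without imiquimod 16 h replicate 3 (-0.17, adjusted p = 0.0698), nor Mrpl24 without vehicle 16 h replicate 3 (-0.11, adjusted p = 0.108) or imiquimod 16 h replicate 2 (-0.11, adjusted p = 0.0945).

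Large subunit genes specific to mitochondria rose in 15 of 18 tested cases and fell in 0, with a median of 0.70. Of the 7 genes for the central protuberance, where a structural tRNA takes the place of the bacterial 5S ribosomal RNA, 6 rose and 0 fell (median 0.62). The seventh was Mrpl58, a peptidyl-tRNA hydrolase built into the particle, at 14.7 CPM in vehicle and 14.6 CPM in imiquimod 16 h (log2 fold change 0.00 ± 0.095, SE). Mrpl41 rose by 0.51, Mrpl42 by 0.80 and Mrpl52 by 0.71. Among the 8 genes for the small subunit head 7 rose and 1 fell, with a median of 0.56. Of the 3 genes named for the small subunit whose products sit elsewhere, Mrps30 and Mrps18a, found in the large subunit, rose by 0.57 and 0.28. Mrps36, a component of the 2-oxoglutarate dehydrogenase complex and not of the ribosome, stood at 1.9 CPM in vehicle and 2.07 CPM in imiquimod (log2 fold change 0.13 ± 0.26, SE; not called).

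**Figure D2:**
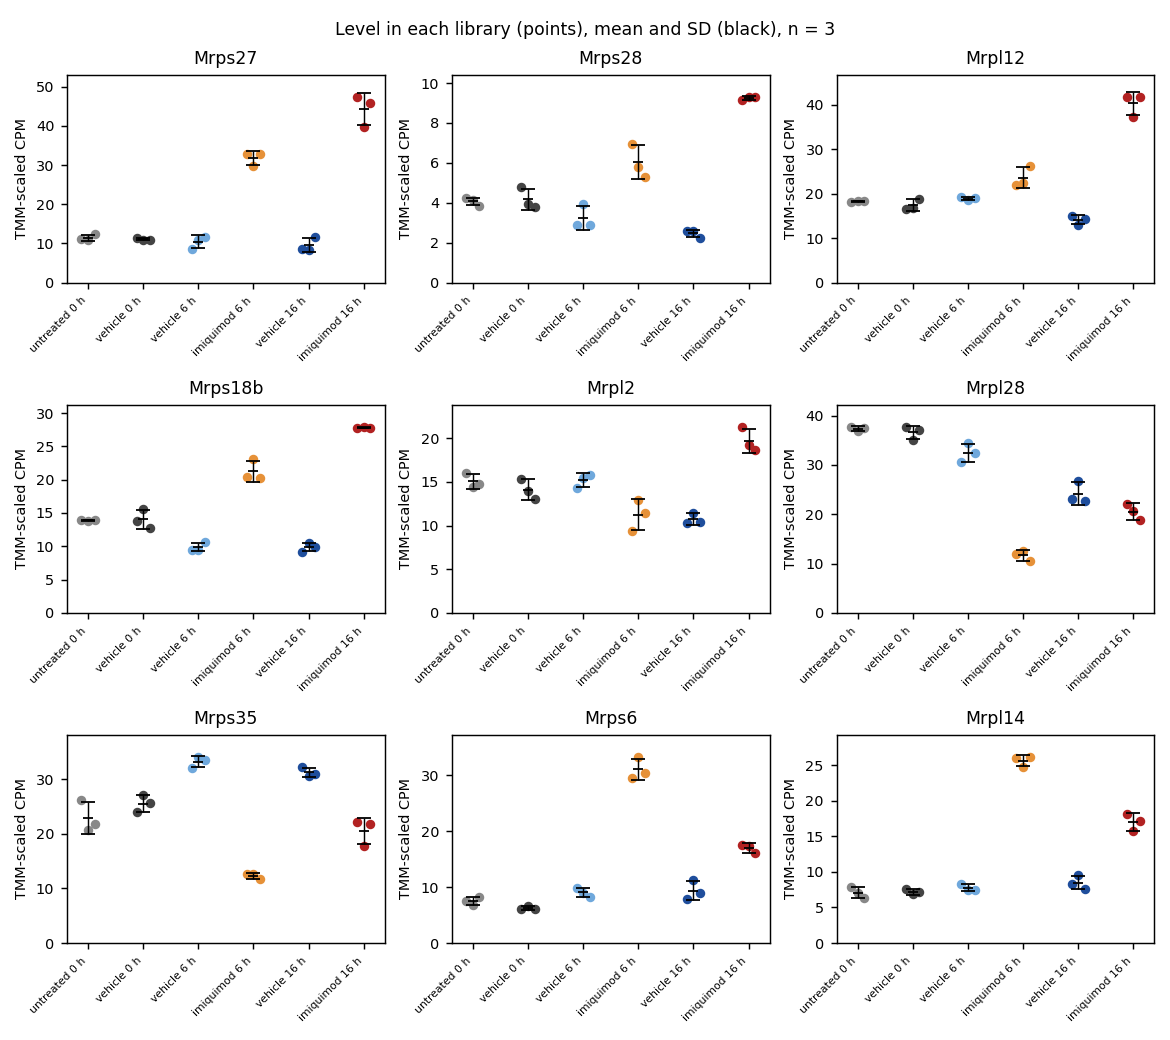
TMM-scaled CPM of 9 genes in each of the 18 libraries, with points for libraries and black bars for the mean and SD of each group (n = 3). Mrps27, Mrps28, Mrpl12 and Mrps18b are highest in imiquimod 16 h, Mrps6 and Mrpl14 are highest in imiquimod 6 h, and Mrpl28 and Mrps35 are lowest in imiquimod 6 h.

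After 6 h of imiquimod the set was split. Against vehicle 6 h, 31 of 77 genes rose and 26 fell (edgeR), where 37.7% of all genes were higher and 39.2% lower, shares close to those of the set. At least 1.5-fold changes were seen for 14 higher and 7 lower genes, beside 24.1% and 27.8% of all genes. The median of the 77 was 0.02, beside -0.04 for all genes, and values ran from -1.48 to 1.78. The split depends on the scaling. With library totals 14 rose and 46 fell, where 24.9% and 55.3% of all genes were called. The median of all genes moved to -0.39 and that of the 77 to -0.33. The set stood 0.06 above all genes under either scaling. That distance is no check, because a change of scaling shifts all genes nearly alike. Among all genes called, 49% were higher with TMM factors and 31.1% with library totals.

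The largest increases at 6 h were in Mrps6, Mrpl14, Mrps27, Mrps18b and Mrps28, and these 5 were also higher at 16 h. Mrps6 (ENSMUSG00000039680.10, chr16:92058270-92112227), a protein of the small subunit platform, stood at 9.88, 9.02 and 8.21 CPM in vehicle 6 h and at 29.5, 33.2 and 30.4 CPM in imiquimod 6 h. The groups did not overlap, and the log2 fold change came to 1.78 ± 0.097 (SE; edgeR adjusted p = 1.29e-28). It shares 19.9% of its exonic bases with same-strand genes, of which Slc5a3, with 19523 counts, rose by 1.43 at 6 h. Mrpl14 (ENSMUSG00000023939.7, chr17:45686322-45698495) stood at 8.32, 7.48 and 7.47 CPM against 26, 24.7 and 26.1 CPM, also without overlap (log2 fold change 1.72, SE 0.10; edgeR adjusted p = 1.28e-26). Of its exonic bases 11.2% lie opposite Tmem63b, which rose by 3.37. How far reads of these neighbours enter the counts of Mrps6 and Mrpl14 was not tested. Mrps27 rose by 1.61, Mrps18b by 1.11 and Mrps28 by 0.89, and their 3 imiquimod libraries each lay above the vehicle libraries.

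The largest decreases at 6 h were in Mrpl28, Mrps35, Mrpl34, Mrpl33 and Mrps26. Mrpl28 (ENSMUSG00000024181.8, chr17:26123500-26126613) went from 30.7, 34.4 and 32.4 CPM to 12, 12.6 and 10.5 CPM. Every imiquimod library was far under the vehicle range, at a log2 fold change of -1.48 ± 0.087 (SE; edgeR adjusted p = 1.42e-26). Mrps35 went from 32, 34 and 33.5 CPM to 12.6, 12.7 and 11.7 CPM, at -1.43 ± 0.09 (SE; edgeR adjusted p = 4.75e-25). Mrpl34 went from 10.7, 10.9 and 11.2 CPM to 3.53, 4.94 and 4.71 CPM, a log2 fold change of -1.31. Neither gene overlapped between groups. Mrpl33 fell by 0.80 and Mrps26 by 0.78 on the log2 scale. None of Mrpl28, Mrps35 and Mrpl34 shares exonic bases with another gene.

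By class, 8 of 17 small subunit genes with a bacterial counterpart rose at 6 h and 3 fell (median 0.08), and of those specific to mitochondria 2 of 9 rose and 5 fell (median -0.23). Of the large subunit genes with a bacterial counterpart 14 of 30 rose and 11 fell (median 0.14), and of those specific to mitochondria 6 of 18 rose and 7 fell (median -0.05). Over all genes 37.7% were higher and 39.2% lower, and the large subunit classes were near these shares. Mrps2 rose by 0.59, Mrps18c by 0.63, Mrps18a by 0.47 and Mrps12 by 0.50. With library totals the last 3 were no longer called, at 0.28 (adjusted p = 0.0808) for Mrps18c, 0.12 (adjusted p = 0.217) for Mrps18a and 0.14 (adjusted p = 0.365) for Mrps12. Mrpl2 fell by 0.43, Mrps34 by 0.56, Mrps15 by 0.40 and Mrpl58 by 0.29 on the log2 scale. The small 6 h values turn with the scaling: with library totals Mrpl10 went from 0.16 to -0.20, Mrpl3 from 0.15 to -0.20 and Mrpl12 from 0.32 to -0.03. Likewise Mrpl40 went from 0.32 to -0.03, Mrpl11 from 0.05 to -0.30 and Mrpl45 from 0.15 to -0.20. The 6 h calls of Mrpl10 and Mrpl3 were also lost when single libraries were left out, at 0.08 (adjusted p = 0.342) for Mrpl10 without vehicle 6 h replicate 1 and at 0.08 (adjusted p = 0.300) for Mrpl3 without vehicle 6 h replicate 3. That of Mrps12 was lost without imiquimod 6 h replicate 2 (0.34, adjusted p = 0.0545). Mrps30, Mrps36, Mrpl41, Mrpl11 and Mrpl45 were not called at 6 h, with values of -0.03, -0.10, -0.10, 0.05 and 0.15. With library totals 4 of these 5 were called lower, Mrps30 at -0.38 (adjusted p = 8.35e-06), Mrpl41 at -0.45 (adjusted p = 0.000391), Mrpl11 at -0.30 (adjusted p = 0.0129) and Mrpl45 at -0.20 (adjusted p = 0.0307).

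The imiquimod effect was more positive at 16 h than at 6 h across most of the set. The test of the difference between the effects called 57 genes higher at 16 h and 3 lower (edgeR), where 28.5% and 28.4% of all genes were called. Of the 57, 31 differed by at least 1.5-fold (17.2% of all genes), and of the 3, 2 did (16% of all genes). The median difference was 0.51 on the log2 scale, beside -0.01 for all genes, and 69 of 77 genes had a larger value at 16 h. With library totals 68 were higher and 2 lower, where 46.7% and 15.2% of all genes were called. The share of higher calls among all genes called moved from 50.1% to 75.5%. The 6 h and 16 h effects share no libraries. Across the 77 genes they had a Pearson correlation of 0.72, given as a description over genes that share the same 12 libraries.

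Of the 77 genes, 30 rose at both times, 5 fell at both, 13 fell at 6 h and rose at 16 h, and 19 were not called at 6 h and rose at 16 h. The shares of all genes with these joint patterns were not counted, so the patterns are not given as a trait of the set. A further 8 fell at 6 h and were not called at 16 h, and Mrpl32 alone rose at 6 h without a call at 16 h. No gene rose at 6 h and fell at 16 h, and Mrps36 was called at neither time. The 13 that changed direction were Mrpl2, Mrpl16, Mrpl18, Mrpl22, Mrpl35, Mrpl42, Mrpl51, Mrpl52, Mrpl57, Mrps15, Mrps17, Mrps31 and Mrps34. Mrpl42 showed the largest difference, 1.33 ± 0.15 (SE; edgeR adjusted p = 9.7e-13). It stood at 14.4, 13.1 and 12.9 CPM in vehicle 6 h, 7.84, 10.6 and 9.33 in imiquimod 6 h, 11.9, 13.5 and 10.5 in vehicle 16 h and 20.8, 21.5 and 20.2 in imiquimod 16 h. The imiquimod libraries were thus the lowest at 6 h and the highest at 16 h, with no overlap at either time.

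Mrpl2 differed by 1.31, Mrpl34 by 1.31, Mrpl52 by 1.29 and Mrpl28 by 1.24. Mrpl2 stood at 14.3, 15.5 and 15.8 CPM in vehicle 6 h, 9.41, 12.9 and 11.5 in imiquimod 6 h, 10.3, 11.5 and 10.4 in vehicle 16 h and 21.3, 19.2 and 18.7 in imiquimod 16 h. For this gene the vehicle libraries were lower at 16 h than at 6 h, and the imiquimod libraries were higher. Mrpl34 reached 8.55, 10.5 and 8.74 CPM in imiquimod 16 h, inside the vehicle 16 h range of 8.33 to 10.3 apart from its highest library. The 3 genes with a smaller effect at 16 h were Mrps6 (-0.91 ± 0.15, SE), Mrpl14 (-0.72 ± 0.15, SE) and Mrpl39 (-0.38 ± 0.12, SE). With library totals the value of Mrpl39 was -0.05 and no longer called. The neighbours Slc5a3 and Tmem63b also had smaller effects at 16 h, with differences of -1.15 and -1.70. Among the 45 tested genes with no exonic overlap with any other gene, 36 were called with a larger effect at 16 h and 1 with a smaller one. Of all genes 28.5% and 28.4% were called so. At 16 h 37 of the 45 rose and 3 fell, where 39.1% of all genes were higher and 38.1% lower.

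**Figure D3:**
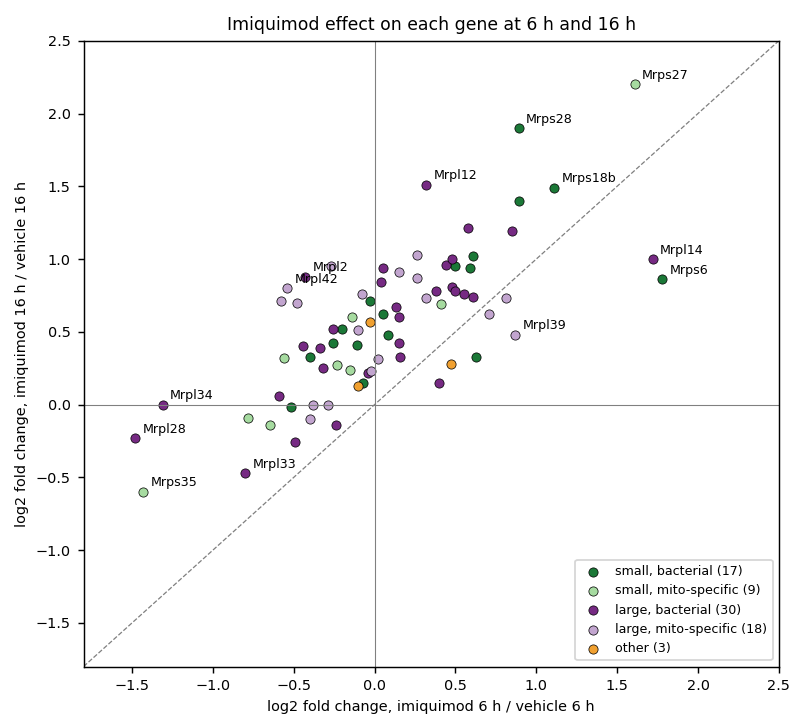
Log2 fold change of each of the 77 genes with imiquimod at 6 h (horizontal) and 16 h (vertical), coloured by structural class, with a dashed line where both are equal. Of the 77 points 69 lie above the dashed line, and Mrps6, Mrpl14 and Mrpl39 lie under it.

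Between the vehicle time points the shares of the set that were called lay under or near those of all genes. Between 0 h and 6 h 13 genes rose and 16 fell (edgeR), where 26% and 26.9% of all genes were called, with a median of 0.01 beside 0 for all genes. Of these, 1 rose and 0 fell by at least 1.5-fold, beside 8.86% and 8.77% of all genes. In place of 16, 10 genes fell when vehicle 0 h replicate 3 was left out, and 10 when vehicle 6 h replicate 3 was left out. Between 0 h and 16 h 6 rose and 27 fell, where 28.4% and 30% of all genes were called, with a median of -0.14 beside 0. Of these, 1 rose and 3 fell by at least 1.5-fold, beside 12.1% and 11.7% of all genes. The values named next are the extremes among called genes whose libraries did not overlap between the groups. At 16 h the lowest value was that of Mrps28 (-0.76), followed by Mrpl52 (-0.70), Mrpl28 (-0.60), Mrpl54 (-0.58) and Mrps14 (-0.55). The highest were Mrps25 (0.66), Mrps6 (0.57), Mrpl34 (0.31), Mrps35 (0.29) and Mrpl24 (0.25). Mrps25, a mitochondria-specific small subunit protein, stood at 11.2, 12.1 and 13 CPM in vehicle 0 h, 18.4, 20.4 and 19.9 in vehicle 6 h and 16.6, 19.7 and 20.8 in vehicle 16 h. It shares 69.8% of its exonic bases with the opposite-strand gene Nr2c2. At 6 h the highest values were those of Mrps25 (0.70), Mrpl34 (0.54), Mrps6 (0.52), Mrps35 (0.38) and Mrpl9 (0.36). The lowest were those of Mrps18b (-0.51), Mrpl54 (-0.46), Mrpl47 (-0.35), Mrpl40 (-0.29) and Mrpl15 (-0.27, as rounded also the value of Mrpl13 and Mrpl52). Outside that limit Mrps36 was at 0.44 and 0.35 at 6 h and 16 h (not called), Mrps28 at -0.37 at 6 h (not called) and Mrpl46 at -0.33 at 6 h, lower with overlapping libraries. Of the 77 genes 14 fell at both vehicle times, comparisons that share the vehicle 0 h libraries. The share of all genes that fell at both was not counted.

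Against the starting level, vehicle 0 h, 58 genes were higher after 16 h of imiquimod and 4 lower (edgeR), where 38.8% and 36.8% of all genes were called, and the median was 0.36 beside 0.02. Of the 62 genes higher than vehicle 16 h, 53 were also higher than vehicle 0 h and 9 were not called against it. Of these 9, 3 were lower in vehicle 16 h than in vehicle 0 h. Shares of all genes with these joint calls were not counted. Mrpl52, among the 3, stood at 20, 19.3 and 20.4 CPM in vehicle 0 h, 12.1, 12.3 and 12.3 in vehicle 16 h and 20.4, 20.4 and 19.2 in imiquimod 16 h. Its imiquimod libraries were far above vehicle 16 h but within the range of vehicle 0 h, save for the lowest. Mrps28 stood at 4.77, 3.95 and 3.79 CPM in vehicle 0 h, so its imiquimod 16 h libraries at 9.14 to 9.31 were above both. The highest values against vehicle 0 h were Mrps27 (2.00), Mrps6 (1.43), Mrpl14 (1.24), Mrpl17 (1.23) and Mrpl12 (1.20). The 4 lower genes were Mrpl28 (-0.83), Mrpl4 (-0.56), Mrpl33 (-0.35) and Mrps35 (-0.31). After 6 h of imiquimod 30 genes were higher and 21 lower than vehicle 0 h, where 36.7% and 38.7% of all genes were called, and the median was 0.08 beside -0.03. The extremes were Mrps6 (2.30), Mrpl14 (1.83), Mrps27 (1.53), Mrpl17 (1.00) and Mrps7 (0.76), and Mrpl28 (-1.65), Mrps35 (-1.05), Mrpl52 (-0.85), Mrpl34 (-0.77) and Mrpl42 (-0.75). With library totals 7 were higher and 42 lower, where 23.1% and 56% of all genes were called.

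Counts in the gene lists that follow stand beside 37.7% higher and 39.2% lower of all genes at 6 h, and 39.1% and 38.1% at 16 h. The lists were counted with TMM factors only. Their 6 h counts and values were not repeated with library totals, where the median of all genes at 6 h was -0.39. The 5 mitoribosome subunits that carry other names were also higher at 16 h. All 5 rose, with a median of 0.77: Chchd1 by 1.22, Gadd45gip1 by 0.99, Ptcd3 by 0.77, Dap3 by 0.42 and Aurkaip1 by 0.41. At 6 h 4 of the 5 rose and 0 fell, with a median of 0.28. Assembly factors, the enzymes and GTPases that build the particle, rose in 7 and fell in 10 of 25 cases at 6 h (median -0.10), and rose in 13 and fell in 3 at 16 h (median 0.21). Mrm3, a methyltransferase of the large subunit ribosomal RNA, rose by 1.08 at 6 h and 1.69 at 16 h, while Rbfa, a maturation factor of the small subunit, fell by 2.28 and 1.11 on the log2 scale. Of 16 translation factors 3 rose and 9 fell at 6 h (median -0.22), and 7 rose and 4 fell at 16 h (median 0.08). The share of assembly factors that fell at 6 h and that of translation factors that rose at 16 h were near those of all genes. Gfm1, the elongation factor G of mitochondria, rose by 1.03 at 16 h, and Lrpprc and Slirp, partners that stabilise mitochondrial mRNAs, by 0.72 and 0.90. Of 13 genes for mitochondrial transcription and DNA maintenance 2 rose and 10 fell at 6 h (median -0.53), and 6 rose and 4 fell at 16 h (median -0.03). Of the 17 mitochondrial aminoacyl-tRNA synthetases, which charge the tRNAs the ribosome uses, 2 rose and 11 fell at 6 h (median -0.40), and 14 rose and 2 fell at 16 h (median 0.42). Iars2 fell by 0.71 at 6 h on the log2 scale, and Yars2 rose by 1.04 at 16 h. Lars2 was called higher at 16 h (1.77), but its imiquimod libraries, at 43, 250 and 99.3 CPM, spread widely and overlapped the vehicle libraries at 21.1, 34.5 and 58.6 CPM. Without Lars2 the synthetases summed to 391.6 ± 8.23 CPM (SD, n = 3) in vehicle 6 h, 301.6 ± 3.53 in imiquimod 6 h, 372.3 ± 6.61 in vehicle 16 h and 452.2 ± 1.28 in imiquimod 16 h.

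The 11 regulators linked to mitochondrial biogenesis did not move as a block: 7 rose and 3 fell at 6 h, and 5 rose and 3 fell at 16 h. At 6 h they summed to 866.7 CPM in vehicle and 1068.6 in imiquimod. As an unscaled share of all counts they took 0.0887 to 0.0941% in vehicle and 0.0876 to 0.0889% in imiquimod. The small 6 h values below may thus depend on the scaling, which was not tested for single regulators. Myc, a growth-promoting transcription factor, went from 4.33 ± 0.686 to 86.3 ± 2.02 CPM at 6 h and from 3.59 ± 0.451 to 120 ± 1.32 CPM at 16 h (SD, n = 3; log2 fold changes 4.31 and 5.05). Of the PGC-1 family of coactivators, Pprc1 rose by 1.22 and 1.63, Ppargc1a rose by 2.64 and 2.40 from levels under 1 CPM, and Ppargc1b fell by 2.69 and 1.26 on the log2 scale. Nrf1, whose motif was searched above, was at 0.12 at 6 h (adjusted p = 0.034) and 0.05 at 16 h (not called). The ETS factor Gabpa rose by 0.37 at 6 h and was at 0.01 at 16 h, and its partner Gabpb1 rose by 0.87 and 0.56, while Gabpb2 fell by 0.15 and 0.17. Yy1 was at -0.01 and fell by 0.17, Esrra fell by 0.34 and was at -0.07, and Hcfc1, a cofactor of several of these, rose by 0.24 and 0.22.

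The RNAs that the mitochondrial ribosome contains or translates did not rise with its protein genes at 16 h. Of the 13 mitochondrially encoded mRNAs 7 were tested, the other 6 having 35 counts or fewer over the 18 libraries. Of the 7, 0 rose and 4 fell at 16 h: mt-Nd4 by 0.83, mt-Cytb by 0.81, mt-Nd5 by 0.79 and mt-Co1 by 0.31 on the log2 scale. At 6 h mt-Co1 rose by 0.40 and the other 6 were not called. The mRNAs summed to 4982 to 5120.5 CPM in vehicle 16 h and 3771.7 to 4112.7 in imiquimod 16 h, while the vehicle 6 h libraries spread from 2791.1 to 4760.3. The ribosomal RNAs mt-Rnr1 and mt-Rnr2 fell by 0.69 and 0.81 at 16 h against vehicle 16 h. Together they stood at 55312 ± 1450 CPM in vehicle 0 h, 93308 ± 2780 in vehicle 16 h and 53887 ± 4550 in imiquimod 16 h (SD, n = 3), so the level with imiquimod was near that of vehicle 0 h and vehicle 16 h stood above both. These values are what ribosomal RNA depletion left in each library, and the part of the depletion in them was not tested.

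**Figure D4:**
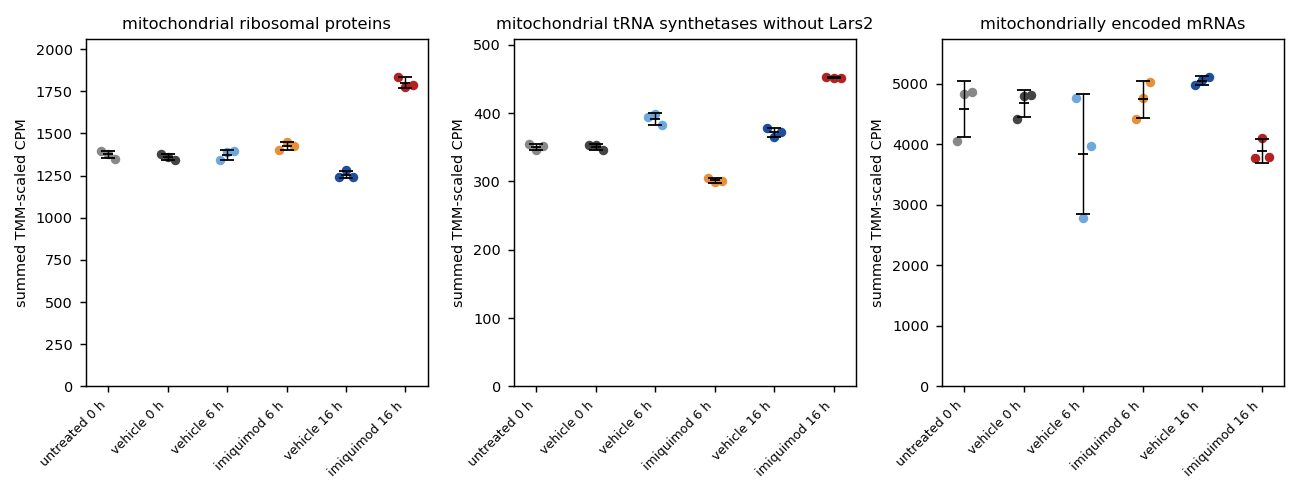
Summed TMM-scaled CPM of the 78 mitochondrial ribosomal protein genes, of 16 mitochondrial tRNA synthetases without Lars2, and of 13 mitochondrially encoded mRNAs in each library (points), with the mean and SD of each group (black, n = 3). The protein genes and the synthetases are highest in imiquimod 16 h, where the mRNAs lie under vehicle 16 h.

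Side by side with 2 related gene families, the nuclear-encoded oxidative phosphorylation genes rose in 34 and fell in 24 of 79 tested cases at 6 h (median 0.11), and rose in 58 and fell in 8 at 16 h (median 0.44). The cytosolic ribosomal protein genes rose in 17 and fell in 43 of 85 at 6 h (median -0.09), and rose in 43 and fell in 15 at 16 h (median 0.09). At 6 h the oxidative phosphorylation genes summed to 3654.4 CPM in vehicle and 4048.5 in imiquimod. Their unscaled share was 0.366 to 0.399% in vehicle and 0.334 to 0.335% in imiquimod. For the cytosolic ribosomal protein genes both the sum and the share were lower with imiquimod at 6 h. In vehicle from 0 h to 16 h 53 of 79 oxidative phosphorylation genes and 33 of 85 cytosolic ribosomal protein genes fell, beside 27 of 77 mitochondrial ribosomal protein genes. At 16 h of imiquimod the shares of genes that rose were 80.5% for the mitochondrial ribosome, 73.4% for oxidative phosphorylation and 50.6% for the cytosolic ribosome, beside 39.1% of all genes. The difference between these shares was not tested.

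**Figure D5:**
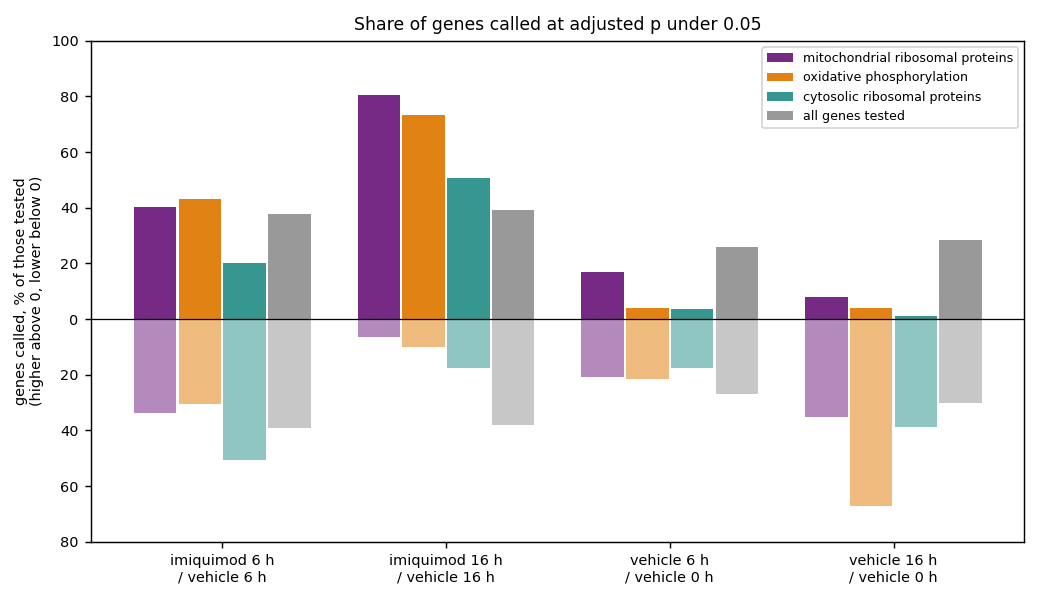
Share of tested genes called at an adjusted p under 0.05 in 4 comparisons, higher above 0 and lower below 0, for the mitochondrial ribosomal protein genes (77), oxidative phosphorylation genes (79), cytosolic ribosomal protein genes (85) and all 14876 genes. At 16 h of imiquimod 80.5% of the mitochondrial ribosomal protein genes were higher, beside 39.1% of all genes.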

How the data were processed

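RNA-seq of 18 pDC libraries in 6 groups of 3 was used. The authors deposited a table of raw read counts, in whole numbers, with genes in rows and libraries in columns. STAR and mm10 are named in the submitters' processing notes; the aligner version, counter, strand setting, handling of multiply mapped reads and annotation release are not given in the sources used here. The labels' protocols describe directional libraries, so reads of opposite-strand neighbours enter a count only if strand was not used in counting. Table columns that belong to no sample numbered 0.

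All 54532 genes entered, and 14876 passed edgeR's filterByExpr (minimum count 10). The 6 groups were fitted together with edgeR 4.0.16 in R 4.3.3 (TMM factors, robust quasi-likelihood F test), and p-values were adjusted by Benjamini-Hochberg over all tested genes. A gene was called at an adjusted p under 0.05, and a stricter rule added a 1.5-fold change. The biological coefficient of variation, taken in common over all groups, was 3.08%, so that small changes are called in most genes. Agreement between libraries differed by group. Chi-square per degree of freedom between library pairs, where higher means poorer agreement, was 4.28 to 10.8 in vehicle 6 h. It was 1.32 to 1.51 in imiquimod 6 h and 1.45 to 1.65 in vehicle 16 h. Vehicle 6 h is the control of the 6 h effects and enters the difference. SE is the log2 fold change divided by the square root of F. The procedure was tested on simulated counts.

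Coordinates and exonic overlaps are from GENCODE release 21 of the mouse (GRCm38, which is mm10). Of the 78 identifiers 73 were found with their version and 5 under another version. Promoters are from RefSeq (GRCm38.p6).

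The members and all lists were chosen with earlier results of these data known. Structural classes and roles were assigned from general knowledge, with no reference table. Genes were named by 1 rule: in each comparison the 5 highest and 5 lowest log2 fold changes among called members whose libraries did not overlap between groups, a panel of 18 members named whatever their values, the 4 highest and 4 lowest per kilobase at vehicle 0 h, all biogenesis regulators, and at most 4 called genes of each other list. Naming all 5 mitoribosome subunits with other names goes beyond this rule. Mrpl1, the lists of names by pattern and the neighbours were added after their values were seen. Alternatives were DESeq2 1.42.0 size factors and Wald test, library totals, 2 other expression filters, a fit of only the groups compared, leaving out ribosomal RNA genes, a replicate block, and leaving out each library.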

Additional observations from a re-analysis of the deposited data

Results flagged for a closer look

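The imiquimod effect was compared between 6 h and 16 h by a test of the difference itself (edgeR quasi-likelihood, Benjamini-Hochberg over 14876 genes), and it differed for 57 genes with a larger effect at 16 h and 3 with a smaller one. Of all genes 28.5% and 28.4% were called in these directions. Among the named genes the differences on the log2 scale, 16 h minus 6 h, were 1.33 for Mrpl42, 1.31 for Mrpl2, 1.31 for Mrpl34, 1.29 for Mrpl52, 1.24 for Mrpl28 and 1.19 for Mrpl12. They were 0.89 for Mrpl11, 0.89 for Mrps34, 0.76 for Mrpl45, 0.73 for Mrps15, 0.61 for Mrpl41 and 0.60 for Mrps30. Smaller positive differences were 0.38 for Mrps18b, 0.35 for Mrps2 and 0.27 for Mrpl3. The negative ones were -0.91 for Mrps6, -0.72 for Mrpl14 and -0.38 for Mrpl39. With library totals the median difference over all genes was 0.33, beside -0.01 with TMM factors. The calls of Mrps18b (adjusted p = 0.0584) and Mrps2 (adjusted p = 0.0624) were lost with the DESeq2 Wald test, and that of Mrps2 also without vehicle 6 h replicate 3 (0.29, adjusted p = 0.0631) or vehicle 16 h replicate 3 (0.30, adjusted p = 0.0529).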

How the results depend on the processing

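Under library totals the 6 h counts moved from 31 higher and 26 lower to 14 and 46 against vehicle 6 h, and from 30 and 21 to 7 and 42 against vehicle 0 h. Of all genes under library totals, 24.9% were higher and 55.3% lower against vehicle 6 h, and 23.1% and 56% against vehicle 0 h. Of the 31 higher genes 14 stayed higher, and all 26 lower genes stayed lower. The values of Mrpl10 (-0.20), Mrpl11 (-0.30), Mrpl12 (-0.03), Mrpl3 (-0.20), Mrpl40 (-0.03) and Mrpl45 (-0.20) changed sign there. For vehicle 6 h against vehicle 0 h, 8 genes were higher by the DESeq2 Wald test in place of 13, where 22.2% of all genes were higher. With no expression filter 10 were lower in place of 16, where 13.1% of the 28361 genes in that fit were lower. The cause was not tested. The other counts stayed within 1.5 times their value under each setting that kept all libraries.

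Leaving out each library in turn gave 57 to 62 higher and 3 to 6 lower genes for imiquimod 16 h against vehicle 16 h, 26 to 31 and 23 to 26 at 6 h, and 55 to 60 and 3 to 4 for the difference. It gave 11 to 15 and 10 to 15 for vehicle 6 h, 4 to 6 and 19 to 25 for vehicle 16 h, 24 to 30 and 19 to 23 for imiquimod 6 h and 49 to 56 and 4 to 5 for imiquimod 16 h, the last 4 against vehicle 0 h. These fits hold fewer libraries, and the shares of all genes called in them were not counted.

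The replicate numbers do not mark a shared culture or day in the labels, and deviations of same-numbered libraries correlated at -0.0728 to 0.0398. With the replicate number as a block 62 genes were higher and 5 lower at 16 h, 31 and 26 at 6 h, and 57 and 3 for the difference. Of all genes 39% and 37.9%, 37.5% and 39.1%, and 28.3% and 28.2% were called so. Against vehicle 0 h the block gave 29 higher and 21 lower for imiquimod 6 h and 57 and 4 for imiquimod 16 h. There 36.6% and 38.5%, and 38.6% and 36.6%, of all genes were called. Of 18 libraries 5 correlated best with their own number.

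Depth limits Mrps36, which had 379 counts over the 18 libraries and an SE of 0.26 at 16 h.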

Other observations

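Of the 78 genes 11 lie on chromosome 11, 8 on chromosome 17 and 7 on chromosome 6, and the rest are spread over 14 other chromosomes with 1 to 6 each. Besides the protein-coding genes the table lists 5 pseudogenes with such names, which held 52 counts (Mrpl23-ps1), 23 (Mrpl48-ps), 23 (Mrps36-ps1) and 0 for both others over the 18 libraries. Copies under other names were not searched, and the handling of multiply mapped reads is not given. These counts therefore set no limit on the reads lost to copies. Among the 32 tested genes that share exonic bases with another gene, 25 rose and 2 fell with imiquimod at 16 h, and 14 rose and 10 fell at 6 h. Of all genes 39.1% were higher and 38.1% lower at 16 h, and 37.7% and 39.2% at 6 h. The 6 h counts of the 32 were not far from these shares. Mrpl24 shares 26.3% of its exonic bases with the opposite-strand gene Rrnad1, whose log2 fold changes were -0.23 at 6 h and -0.20 at 16 h.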
